A study of Mus musculus with 6 samples.

Results

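The genes described here are 7 genes of intracellular nucleic acid sensing, Ifih1, Ddx58, Dhx58, Eif2ak2, Zbp1, Mavs and Tlr3, chosen by symbol from the 23284 genes of the count tables, where all 7 were found. They were compared between livers of wild type and Trim24 -/- mice, all of the C57BL6/J strain and 8 weeks old, with 3 libraries in each group. Trim24 encodes a nuclear receptor cofactor, and the series title places the mice in a study of liver fat and liver cancer. The sources used here do not say how the Trim24 allele was made or which part of the gene it lacks. Each library is named for its genotype and labelled replicate (WT1, WT2 and WT3, KO1, KO2 and KO3), and values per library are listed in that order. Nothing in the labels says that replicates came from separate mice, so a p-value here speaks of the scatter among the 6 libraries, which may be technical.

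Cells detect viral and misplaced self nucleic acids with receptors that lie in the cytosol and in endosomes. Ddx58 (RIG-I) and Ifih1 (MDA5) are helicases that bind double-stranded RNA and signal through Mavs, an adaptor on the mitochondrial surface, and Dhx58 (LGP2) is a related helicase without the signalling domains that tunes the other two. Eif2ak2 (PKR) is a kinase that blocks translation when it binds double-stranded RNA, and Zbp1 binds nucleic acids in the Z conformation and can start cell death. Tlr3 binds double-stranded RNA in endosomes and not in the cytosol, and Mavs is an adaptor and not a sensor, so the group is broader than cytosolic sensors alone. The receptors are known as interferon-inducible genes, and hepatocytes and Kupffer cells both carry RNA sensors.

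The RefSeq promoter table (GRCm38.p6, 250 bases before to 50 after the transcription start) held a window for 5 of the 7 genes, Ifih1, Ddx58, Eif2ak2, Mavs and Tlr3. The windows were searched on both strands for the core of the interferon-stimulated response element, spelled GAAA, any 2 bases, GAAA (TTTC, any 2 bases, TTTC on the opposite strand). The match in each of the 3 windows that held one is shown in capitals within 30 bases, 5′ to 3′ on the strand of the gene, because these 3 are the receptors and the kinase whose levels are given next.
Ifih1: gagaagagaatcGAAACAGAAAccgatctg
Ddx58: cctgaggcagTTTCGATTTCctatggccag
Eif2ak2: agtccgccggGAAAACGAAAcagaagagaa
They lie at chr2:62646206-62646235, chr4:40239804-40239833 and chr17:78882535-78882564, all on the minus strand. Each match fell just after the start, at bases 33 to 42, 3 to 12 and 19 to 28 of the transcript, counted from 1 at the start. The windows of Mavs and Tlr3 held no such letters. The Tlr3 window (chr8:45410331-45410630, minus strand) lay inside the gene span given for Tlr3 below, which ends at 45411080. Bases around that outer end were not searched. Of all 32851 windows of the table, 3.44% held the core, against 3 of the 5 windows here, and a match is a string of letters and not a shown binding site. The motif TTC, any 3 bases, GAA, which reads the same on both strands and is the core of the STAT-binding gamma-activated site, was in 1 of the 5 windows, that of Eif2ak2, and in 8.30% of all windows. It is in capitals in the 250 bases before the start of Eif2ak2 (chr17:78882573-78882822, minus strand), 178 to 170 bases before the start, shown for the distance between both motifs.
Eif2ak2 upstream: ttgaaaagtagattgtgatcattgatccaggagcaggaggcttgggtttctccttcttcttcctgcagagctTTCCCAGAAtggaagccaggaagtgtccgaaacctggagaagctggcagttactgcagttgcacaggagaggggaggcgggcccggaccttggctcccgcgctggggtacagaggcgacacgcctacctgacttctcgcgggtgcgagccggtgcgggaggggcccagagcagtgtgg

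Reads counted in genes were few, 1495583 to 1732309 in the wild type and 1607276 to 2872421 in the knockout libraries, or 4.22% to 6.69% of all counted reads. Levels are given as CPM, read counts per 1000000 reads in tested genes after scaling by the TMM factor of each library, and 1 read was worth 0.348 to 0.699 CPM. Trim24 had 31, 45 and 44 counts in wild type and 3, 2 and 2 in knockout, in accord with the labels. Hepatocyte markers were abundant in every library, with a summed level of 122622 to 136969 CPM in wild type and 89074 to 118793 CPM in knockout over 9 measured markers. Summed Kupffer cell and macrophage markers (18 genes, none at 0 in all libraries) were 288, 509 and 401 CPM in wild type and 452, 841 and 811 CPM in knockout. Pancreatic acinar genes were summed at 1101 and 706 CPM in KO1 and KO3 against 12.5 to 39.8 CPM in the other libraries. In bulk liver RNA, more cells of a type and more RNA per cell cannot be told apart.

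Of the 7 genes, 3 rose in the knockout, Ifih1, Dhx58 and Eif2ak2. Ddx58, Mavs and Tlr3 did not pass the test, and Zbp1 had too few reads to be tested. The test was edgeR's quasi-likelihood test over 9180 genes with a Benjamini-Hochberg adjusted p under 0.05, in which 3.08% of the genes tested were higher and 2.65% lower. At an unadjusted p under 0.05 these shares were 10.3% and 9.97%, with DESeq2 2.83% and 2.86%, and with limma-voom 2.55% and 2.6%, which are the backgrounds of all counts given by those rules. The count of lower genes among the 6 tested was 0, also at an unadjusted p under 0.05 and with DESeq2 and limma-voom. The median log2 fold change (knockout minus wild type) of the 6 was 0.82, against 0.01 over all tested genes. Groups of libraries did not overlap, with the knockout higher, for 3 of the 6 tested genes, Ifih1, Dhx58 and Eif2ak2, against 12.4% of all tested genes. Dhx58 was tested through its knockout libraries alone, so its part in these counts adds no support. The untested Zbp1 had the same arrangement but lies outside that share.

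**Figure D1:**
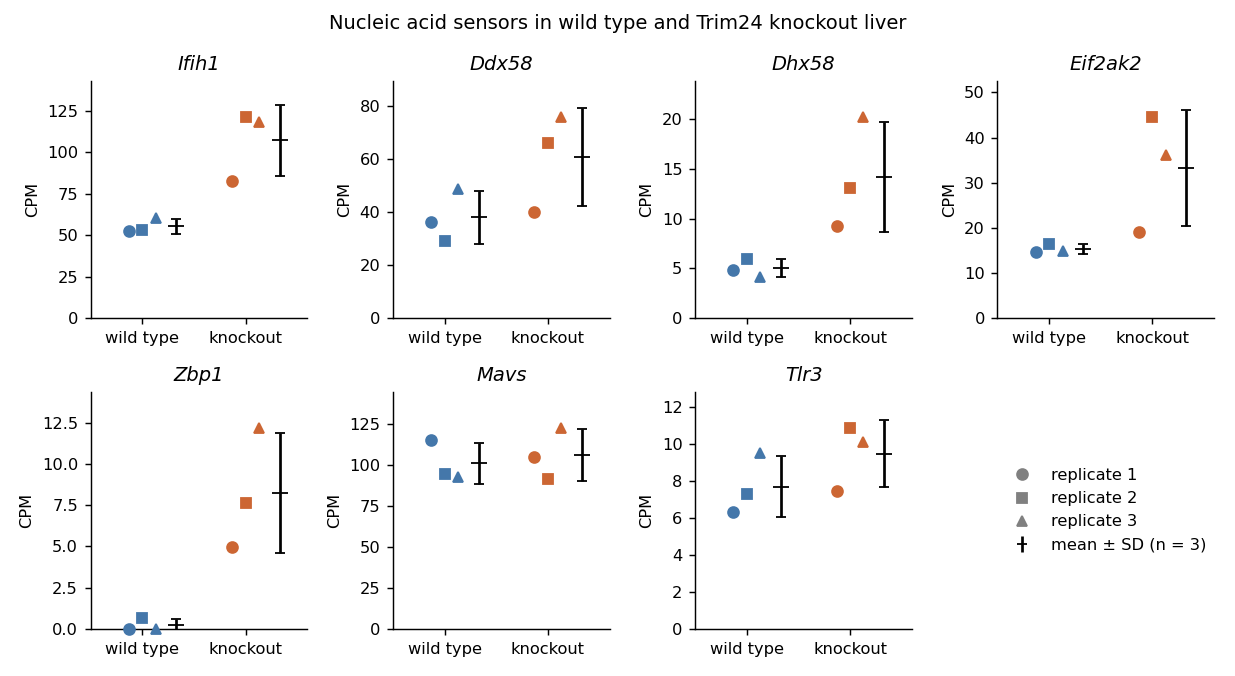
Level of each of the 7 genes in CPM (vertical axes, each from 0) in the 3 wild type and 3 knockout libraries, with marker shapes for the replicate number and the mean ± SD (n = 3) beside each group. The knockout libraries lie above all wild type libraries for Ifih1, Dhx58, Eif2ak2 and Zbp1, and the groups overlap for Ddx58, Mavs and Tlr3.

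Ifih1 (chr2:62595798-62646255, minus strand, 16 exons in GRCm38), the receptor for long double-stranded RNA, had 75, 80 and 102 counts in wild type and 133, 223 and 339 in knockout. These were 52.4, 52.9 and 60.6 CPM in wild type and 82.4, 121 and 118 CPM in knockout. All 3 knockout libraries lay above all 3 wild type libraries, with KO1 the lowest of the knockouts. The mean rose from 55.3 ± 4.6 to 107 ± 21 CPM (SD, n = 3 each), which is 0.96 on the log2 scale (SE 0.18), or 1.94-fold with a 95% interval of 1.49 to 2.53 and an adjusted p of 0.00685 in edgeR. The call held in all 16 other fits, with an adjusted p of at most 0.042 (without WT2).

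Ddx58 (chr4:40203773-40239828, minus strand, 18 exons), the receptor for double-stranded RNA with a triphosphate end, had 52, 44 and 82 counts in wild type and 65, 122 and 218 in knockout. On the CPM scale wild type was at 36.3, 29.1 and 48.7 and knockout at 40.3, 66.2 and 75.8. KO1 lay below WT3, so the groups overlapped, while KO2 and KO3 were above every wild type library. The change was 0.69 on the log2 scale (SE 0.25, adjusted p = 0.13), 1.61-fold with an unadjusted 95% interval of 1.12 to 2.32, and did not pass. It passed without KO1 (adjusted p = 0.022), where only KO2 and KO3 stood for the knockout, and with no filter on low counts (0.022).

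Dhx58 (chr11:100694884-100704271, minus strand, 13 exons), the helicase that tunes the others, was sparse, with 7, 9 and 7 counts in wild type and 15, 24 and 58 in knockout. This was 4.89, 5.95 and 4.16 CPM in wild type and 9.29, 13 and 20.2 CPM in knockout, with no overlap. The gene rose from 5.0 ± 0.9 to 14.2 ± 5.5 CPM (1.55 on the log2 scale, SE 0.38, adjusted p = 0.029), or 2.92-fold with an interval of 1.67 to 5.12. None of its wild type libraries reached the filter on low counts (5.99 CPM before TMM scaling), so it was tested through its knockout libraries alone. The call ended without WT1, WT2, WT3, KO2 or KO3 (adjusted p = 0.093, 0.071, 0.13, 0.056 and 0.13) and with limma-voom (0.062). An exon of Dhx58os lies over Dhx58 on the opposite strand in GENCODE M21, and reads of both cannot be told apart unless the counting used strand, which the sources used here do not say.

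The balance among the 3 helicases was read as each one's share of their sum. Scaled to exon length, Ifih1 made up 45.6%, 49.2% and 43.7% of the helicase level in wild type and 51.4%, 49.6% and 43.6% in knockout. Dhx58 made up 9.66%, 12.6% and 6.79% in wild type and 13.1%, 12.1% and 16.9% in knockout, and Ddx58 the rest. The groups overlapped for each of the 3 shares (exact two-sided permutation p = 0.50 for Ifih1, 0.30 for Ddx58 and 0.20 for Dhx58, where 3 libraries against 3 cannot go below 0.10). Ifih1 and Ddx58 thus held most of the helicase level in every library of both genotypes, and Dhx58 the smallest part.

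**Figure D2:**
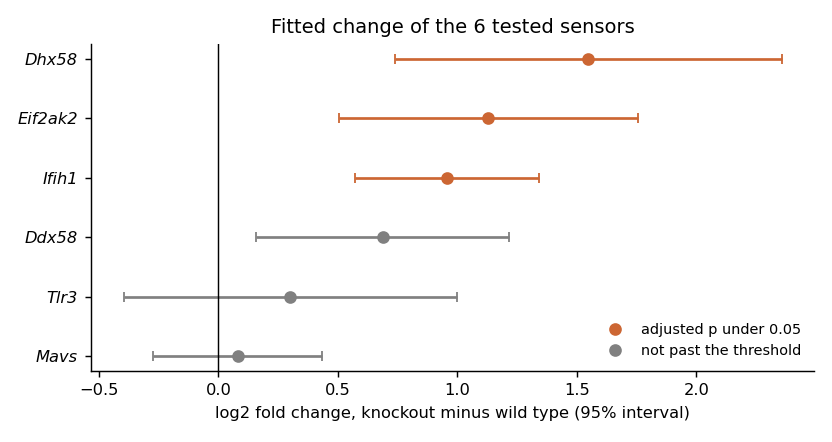
Log2 fold change (knockout minus wild type) of the 6 tested genes with its 95% interval, coloured where the edgeR adjusted p was under 0.05. Dhx58, Eif2ak2 and Ifih1 pass, at 1.55, 1.13 and 0.96, and the intervals of Tlr3 and Mavs include 0.

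Mavs (chr2:131234063-131248025, plus strand, 7 exons), the adaptor that Ifih1 and Ddx58 share, was at 115, 94.6 and 92.6 CPM in wild type and at 105, 91.2 and 122 CPM in knockout. The groups overlapped, and the log2 fold change was 0.08 (SE 0.16, adjusted p = 0.84). The 95% interval of 0.83-fold to 1.35-fold leaves out a change of the size fitted for Ifih1. It turned negative without KO3 (log2 fold change -0.04) and without KO1 and KO3 together (-0.15), without passing in either.

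The ratio of a receptor to Mavs within a library does not depend on the scaling factor of that library. Per length, Ifih1 stood at 0.257, 0.317 and 0.370 of the Mavs level in wild type and at 0.445, 0.751 and 0.545 in knockout, with no overlap (a log2 difference of 0.87 between the groups, exact two-sided permutation p = 0.10, the smallest this design allows). Dhx58 and Eif2ak2 also had higher ratios to Mavs in every knockout library than in any wild type library (differences of 1.37 and 0.96, exact permutation p = 0.10 each). The ratios of Ddx58 (0.59, exact permutation p = 0.20) and Tlr3 (0.23, exact permutation p = 0.50) overlapped between the groups. These 5 ratios and 2 among the helicases were chosen after their values were seen, and the smallest p adjusted over the 7 was 0.23.

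Eif2ak2 (chr17:78852564-78882573, minus strand, 16 exons), the kinase PKR that phosphorylates the translation factor eIF2, had 21, 25 and 25 counts in wild type and 31, 82 and 104 in knockout. Its level was 14.7, 16.5 and 14.8 CPM in wild type and 19.2, 44.5 and 36.2 CPM in knockout. Wild type was tight and the knockout wide, with KO1 at 1.25 times the wild type mean and KO2 and KO3 at 2.90 and 2.36 times. It rose from 15.3 ± 1.0 to 33.3 ± 12.9 CPM (1.13 on the log2 scale, SE 0.29, adjusted p = 0.038), or 2.19-fold with an interval of 1.42 to 3.38. The call ended without WT1, WT2, WT3, KO2 or KO3 (adjusted p = 0.12, 0.098, 0.14, 0.14 and 0.096) and with limma-voom (0.073), and the annotation places an exon of Gm26637 over the gene on the opposite strand.

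Zbp1 (chr2:173206612-173218923, minus strand, 8 exons), the sensor of Z-form nucleic acids, had 0, 1 and 0 counts in wild type and 8, 14 and 35 in knockout. In CPM this was 0, 0.661 and 0 against 4.95, 7.60 and 12.2, so every knockout library lay above every wild type library (exact two-sided permutation p = 0.10, the smallest possible). A count of 0 allows up to 3 counts, or 2.10 CPM in WT1 and 1.78 CPM in WT3, as counting error only. With 1 wild type count against 57 knockout counts, the ratio was 41.7, with an exact 95% counting interval of 7.18 to 1674. The gene did not pass the filter, which it met in 2 knockout libraries and no wild type library. Fits with other filters or libraries kept it through its knockout libraries alone, so their calls add no support and their values are not given.

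Tlr3 (chr8:45395665-45411080, minus strand, 7 exons), the endosomal receptor, had 9, 11 and 16 counts in wild type and 12, 20 and 29 in knockout. It was at 6.29, 7.27 and 9.5 CPM in wild type and 7.43, 10.9 and 10.1 CPM in knockout. The groups overlapped, and the log2 fold change of 0.30 (SE 0.32, adjusted p = 0.66) had an interval of 0.76-fold to 2.0-fold. At this depth a rise of the size fitted for Ifih1 could not be told from no change, and an exon of Gm45542 overlaps the gene on the opposite strand.

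**Figure D3:**
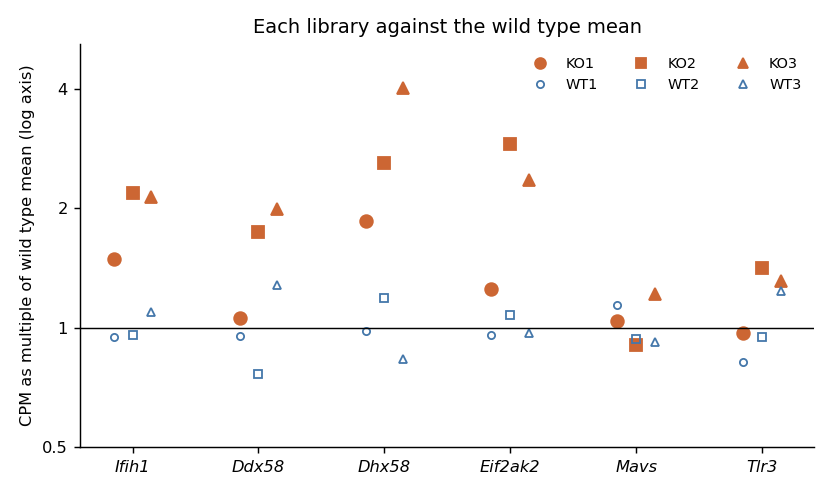
Level of each library as a multiple of the wild type mean (vertical log axis) for the 6 tested genes, with filled markers for knockout and open markers for wild type libraries. KO1 is the lowest knockout library for each gene other than Mavs, at 1.49 times the wild type mean for Ifih1, 1.06 for Ddx58 and 1.25 for Eif2ak2.

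The knockout libraries did not carry the rise evenly. KO1 was at 1.49, 1.86 and 1.25 times the wild type mean for Ifih1, Dhx58 and Eif2ak2, while KO2 was at 2.19, 2.61 and 2.90 times and KO3 at 2.13, 4.04 and 2.36 times. KO1 also had the lowest summed Kupffer cell markers of the knockout libraries, at 452 CPM, below the 509 CPM of WT2. Of 17 tested Kupffer cell markers, 3 were called higher, C1qc (10.6 ± 4.6 and 27.2 ± 6.5 CPM), Mpeg1 (32.9 ± 9.8 and 84.3 ± 41.0 CPM) and Ctss (25.3 ± 11.2 and 60.9 ± 18.5 CPM), and none lower (12 and 0 at an unadjusted p under 0.05, and 6 and 0 with DESeq2). Summed stellate cell markers were 592, 586 and 662 CPM in wild type and 764, 897 and 839 CPM in knockout (12 genes, 10 tested, 2 higher and 0 lower). Neutrophil markers were 18.9, 18.5 and 13.7 CPM in wild type and 32.2, 51.6 and 37.6 CPM in knockout (9 genes, 2 tested, 1 higher, and Elane at 0). The called neutrophil marker had 3, 7 and 4 counts in wild type and reached the filter in knockout libraries only. Neither DESeq2 nor limma-voom called it. Summed endothelial markers were 646, 677 and 692 CPM in wild type and 572, 503 and 645 CPM in knockout (14 genes, all tested, 1 higher and 2 lower). The sums of WT1 and KO3 nearly met. The log2 change of these genes ran from -0.91 to 1.68 and was positive for 5 of the 14. Summed dendritic cell markers were 99.2, 103 and 105 CPM in wild type and 78.6, 113 and 100 CPM in knockout (12 genes, 6 tested, 0 higher and 0 lower). Cholangiocyte markers were 48.9, 50.3 and 36.2 CPM in wild type and 45.8, 72.2 and 62.6 CPM in knockout (8 genes, 3 tested, 0 higher and 0 lower). Lymphocyte markers were too sparse to test, and their sums overlapped too. The part of any of these cell types in the rise of the sensors was not tested. With KO2 as the only knockout library, the log2 change was 1.12 for Ifih1, 1.53 for Eif2ak2 and 1.37 for Dhx58. That fit assumes that the lone library varies like the wild type ones. KO2 was also the highest knockout library for Ifih1 and Eif2ak2, at 121 and 44.5 CPM. Acinar genes were at 14.7 CPM in KO2, and their part in the rise of the sensors was not tested.

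Levels of different genes were compared per kilobase of exon, with lengths from GENCODE M21 (GRCm38), since the gene models of the counting are not given in the sources used here. In wild type, Mavs stood highest at 32.6 ± 4.1 CPM per kb, followed by Ifih1 at 10.1 ± 0.8 and Ddx58 at 9.82 ± 2.56, whose ranges overlapped. Eif2ak2 was at 3.56 ± 0.24 CPM per kb, above Dhx58 at 2.07 ± 0.37 and Tlr3 at 1.71 ± 0.37, and the last 2 overlapped. Zbp1 had no read in 2 of the wild type libraries. In the knockout the order of the first 5 was the same, with Mavs at 34.3 ± 5.1, Ifih1 at 19.6 ± 3.9, Ddx58 at 15.7 ± 4.8, Eif2ak2 at 7.72 ± 2.99 and Dhx58 at 5.87 ± 2.29 CPM per kb. Zbp1 came next at 3.81 ± 1.69 and Tlr3 last at 2.11 ± 0.40 CPM per kb. The ranges of Ifih1 and Ddx58, of Eif2ak2 and Dhx58, of Eif2ak2 and Zbp1, of Dhx58 and Zbp1, and of Zbp1 and Tlr3 overlapped there. The order was the same with the longest transcript of each gene as its length.

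**Figure D4:**
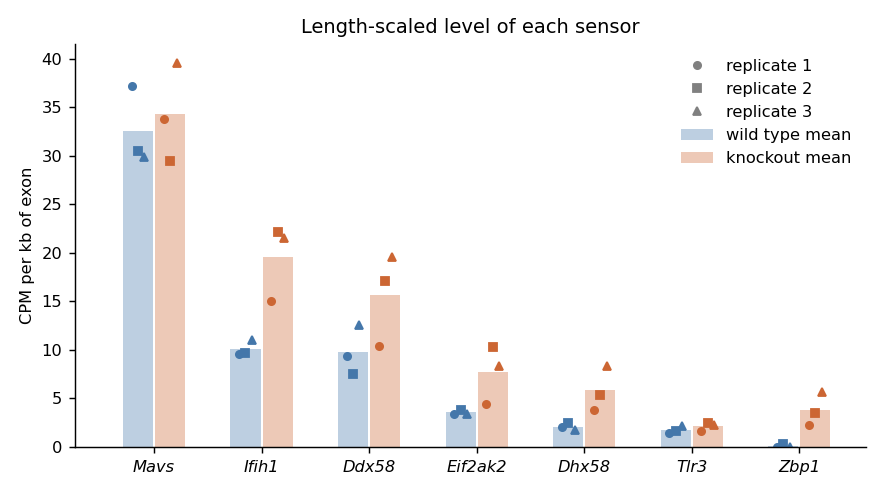
Level of each gene in CPM per kb of exon (vertical axis from 0), with bars for the mean and points for the 3 libraries of each genotype. Mavs is the highest gene in both genotypes, at 32.6 and 34.3 CPM per kb, and Ifih1 and Ddx58 follow.

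Beyond these genes, 166 partners of the pathway were listed, of which 108 were tested. Of these 8 were higher and 1 lower (8 and 1 with DESeq2, 6 and 1 with limma-voom), with a median log2 fold change of 0.12. Over all tested genes 3.08% were higher and 2.65% lower with edgeR. The higher partners include Usp18, Ifi204 and Socs3, which were tested through their knockout libraries, so their calls add no support.

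The relay from the receptors to interferon genes held 1 call among 19 tested genes, with a median of 0.14. Irf7, the inducible transcription factor for interferon genes, was at 9.08, 11.2 and 7.13 CPM in wild type and 15.5, 53.7 and 46.6 CPM in knockout. It rose by 2.10 on the log2 scale (SE 0.40, adjusted p = 0.0082), with KO1 far below the other knockouts, and missed the threshold without WT3 (0.056). Its constitutive relative Irf3 (45.6 ± 1.9 and 43.4 ± 5.3 CPM) and the kinase gene Tbk1 (25.1 ± 6.0 and 20.2 ± 2.6 CPM) did not pass, nor did the TLR3 adaptor gene Ticam1 (15 ± 4.9 and 16.5 ± 2.6 CPM) and Trim25, a ubiquitin ligase of RIG-I (33.7 ± 15.6 and 48.6 ± 11.5 CPM). These 4 were named after their values were seen, for their roles.

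Among 17 tested negative regulators, 1 rose and 1 fell. Usp18, a protease that removes ISG15 and restrains the interferon receptor, rose by 2.94 on the log2 scale (SE 0.40, adjusted p = 0.00074), from 4.89, 4.63 and 4.16 CPM in wild type to 17.3, 48.3 and 39.0 CPM in knockout. Like Dhx58, it reached the filter in no wild type library and was tested through its knockout libraries alone. Rnf125, a ubiquitin ligase that marks RIG-I and MDA5 for degradation, was at 153, 127 and 75.4 CPM in wild type and at 50.2, 44.5 and 48.7 CPM in knockout. It fell by 1.30 on the log2 scale (SE 0.22, adjusted p = 0.0040), and here KO1 lay with the other knockouts. Both calls held in all 16 other fits, which reuse the same libraries and are not independent. An exon of Gm44148 lies over Usp18 on the opposite strand. WT3 was the lowest wild type library for Rnf125, and without it the fall was 1.55 on the log2 scale.

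Most genes of cytosolic DNA sensing did not pass the test or were too sparse for it. Of 23 listed genes 15 were tested, and Ifi204, a DNA-binding member of the interferon-inducible p200 family, was the 1 that rose, from 3.78 ± 1.91 to 13 ± 3.7 CPM (a log2 change of 1.84, SE 0.41, adjusted p = 0.019). It too reached the filter in knockout libraries only. This call ended without WT2, WT3, KO2 or KO3 (adjusted p = 0.071, 0.10, 0.0502 and 0.085) and with KO2 alone (0.092), and near-identical relatives can share its reads. The DNA sensor cGAS, listed as E330016A19Rik, had 1 count in each wild type library and 0, 3 and 4 in knockout, and its partner STING (Tmem173) had 1, 7 and 3 against 5, 3 and 17 counts. No direction could be read from these counts.

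The oligoadenylate synthetases, enzymes that are switched on by double-stranded RNA, were sparse. None of the 12 synthetase genes passed the filter. Their summed level was 6.29, 9.92 and 10.7 CPM in wild type and 14.9, 55.4 and 68.9 CPM in knockout. All 3 knockout sums lay above the wild type sums, with KO1 the lowest of them and KO2 and KO3 far higher. Oas1a had 3, 1 and 4 counts in wild type and 3, 27 and 53 in knockout, and near-identical Oas1 copies can share its reads. Abce1, a ribosome recycling factor and 1 of the 2 tested genes of this list, was at 112 ± 11 and 137 ± 11 CPM (adjusted p = 0.32). The count of calls with edgeR was 0, and it was 0 at an unadjusted p under 0.05, with DESeq2 and with limma-voom as well.

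RNA editing and clearance held 1 call of 10 tested genes. Adar, which edits adenosines in double-stranded RNA and so limits its recognition by MDA5, PKR and ZBP1, was at 20.3, 17.9 and 16.6 CPM in wild type and 29.1, 38.5 and 57.8 CPM in knockout. It rose by 1.22 on the log2 scale (SE 0.27, adjusted p = 0.016), with no overlap. The call ended without WT2, WT3 or KO3 (0.066, 0.086 and 0.058), and Adar shares exon sequence with Chrnb2 on the opposite strand.

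The kinases and partners around PKR had no call among 13 tested genes (4 higher and 0 lower at an unadjusted p under 0.05, and 0 with DESeq2 and limma-voom). The 2 most abundant were Dnajc3, an inhibitor of PKR (453 ± 12 and 534 ± 30 CPM in wild type and knockout, adjusted p = 0.38), and Eif2s3x, a subunit of eIF2 (208 ± 16 and 224 ± 11 CPM, adjusted p = 0.75). Partners of ZBP1 in cell death had no call either among 6 tested (0 higher and 1 lower at an unadjusted p under 0.05, and 0 with DESeq2 and limma-voom). The kinase gene Ripk1, which overlaps Serpinb6a on the opposite strand, was at 55.6 ± 3.4 and 59.0 ± 7.8 CPM (adjusted p = 0.80) and Cflar, an inhibitor of caspase-8, at 144 ± 11 and 171 ± 34 CPM (adjusted p = 0.47). Ripk3, the necroptosis kinase that ZBP1 recruits, had 0 to 2 counts per library. Other endosomal Toll-like receptors and their partners held 0 calls among 11 tested with edgeR (3 higher and 0 lower at an unadjusted p under 0.05, 1 higher with DESeq2). Hsp90b1, a chaperone of these receptors, was at 991 ± 99 and 1517 ± 313 CPM (adjusted p = 0.058), and the protease gene Ctsb at 508 ± 51 and 653 ± 64 CPM (adjusted p = 0.20). Both overlap a gene on the opposite strand.

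Interferon genes themselves gave almost no reads. Of 19 listed genes of types I to III, 17 had a count of 0 in every library, Ifna13 had 1 count in KO2 and 1 in KO3, and Ifnk had 4 to 8 counts in wild type and 6 to 10 in knockout libraries. A count of 0 allows up to 1.04 CPM in KO3 and 2.10 CPM in WT1, so a low level was not detectable at this depth. Of 15 tested interferon receptor and signalling genes 4 rose and none fell (5 and 1 at an unadjusted p under 0.05, 3 and 0 with DESeq2). Irf9, a subunit of the factor that binds the response element shown above, rose from 18.2 ± 1.4 to 44.9 ± 4.2 CPM (a log2 change of 1.31, SE 0.20, adjusted p = 0.0018), and Rnf31 on the same strand shares exon sequence with it. This call held in all 16 other fits. Stat2 rose from 35.8 ± 4.4 to 61.2 ± 14.5 CPM (adjusted p = 0.038), a call kept in 8 of 16 other fits and lost among them without WT1, WT2, WT3 or KO3 (0.11, 0.077, 0.18 and 0.14). Socs3, an inhibitor of cytokine signalling, rose from 4.78 ± 2.16 to 19.9 ± 12.4 CPM (adjusted p = 0.029) with KO1 below WT2. Its call was lost on leaving out any single library other than KO1 (adjusted p of 0.051 to 0.13) and with limma-voom (0.13). Of its wild type libraries WT2 alone reached the filter, so Socs3 was tested through its knockout libraries.

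**Figure D5:**
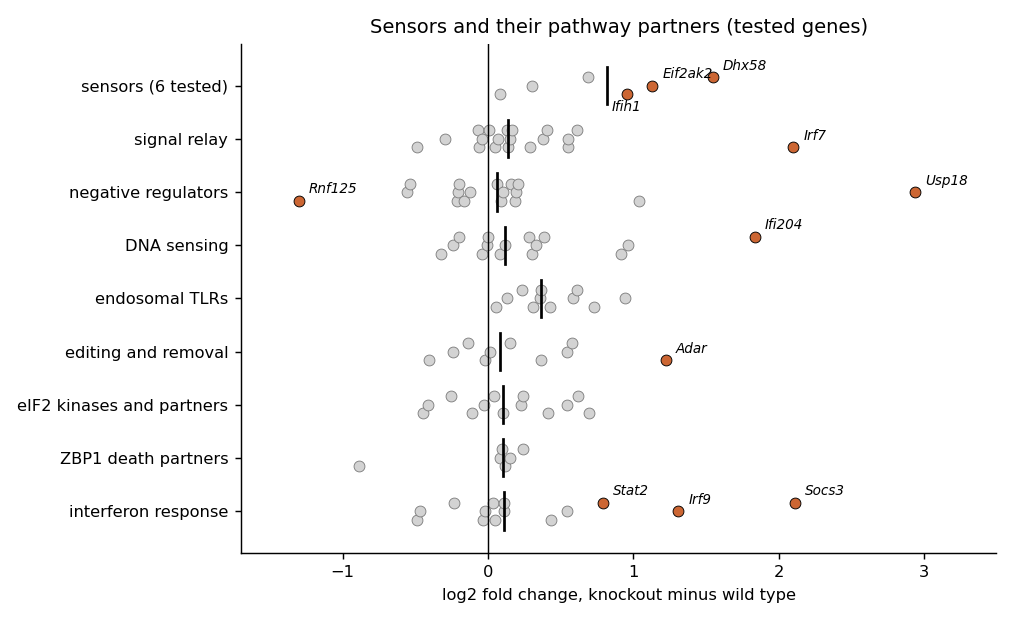
Log2 fold change (knockout minus wild type, horizontal axis) of the tested sensors and of the tested genes of 8 partner lists, one point a gene other than 1 that is not reported here, with the median of each list as a bar and genes with an edgeR adjusted p under 0.05 coloured and named. The list medians of the partners lie between 0.06 and 0.36, and Rnf125 is the 1 called gene below 0.

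The genes with the most similar pattern were taken, 1 for Tlr3 and 2 for each other tested member, by Pearson's r of log2 CPM over the 6 libraries, as a description that shares library and scaling. For Ifih1 they were Trim43b (r = 0.9991) and Acsl4 (0.995), and for Ddx58 Mbd5 (0.992) and Dbnl (0.991). For Dhx58 they were Afp (0.991) and Hsp90ab1 (0.990), and for Eif2ak2 1700123O20Rik (0.992) and Fat1 (0.989). Mavs was closest to Ewsr1 (0.986) and Acat3 (0.983), and Tlr3 to Fam113a (0.983). These were the highest of 9180 tested genes over only 6 libraries, and Trim43b has near-identical copies that can share its reads.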

How the data were processed

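Total RNA of liver was extracted with TRIzol and sequenced on an Illumina HiSeq instrument, per the labels and the series' design text. The authors deposited raw read counts per gene symbol, 1 table a library, and the tools listed in the submitters' processing notes are HTSeq, edgeR and TopHat 1.4.1, beside the mm9 build, each without its role. No source used here gives the strand setting. Reads in no gene (93.3% to 95.8% of counted reads) and ambiguous reads stayed out of library sizes and tests. Low depth limits precision. Floors and the interval of the Zbp1 ratio cover counting error only, and the intervals of fitted changes include the scatter between libraries.

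Counts were fitted with edgeR 4.0.16 in R 4.3.3 (TMM, filterByExpr with a minimum count of 10, quasi-likelihood test, group as the only term, Benjamini-Hochberg over 9180 genes). Each SE is the fitted change divided by the root of its F statistic. Members and lists were chosen with earlier results of these data known. Named genes were the members, Trim24, up to 4 called genes of each of 10 pathway lists or else the 2 most abundant, called Kupffer cell markers and the 2 most similar genes of each tested member. A few named items are not reported here. Alternatives were other scaling factors, DESeq2 1.42.0, limma 3.58.1 voom, the edgeR exact test, other filters and thresholds, a replicate block and libraries left out. Figures used Python 3.11.15 with matplotlib 3.10.9.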

Additional observations from a re-analysis of the deposited data

How the results depend on the processing

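Ifih1 kept its call in 16 of 16 other fits and Dhx58 and Eif2ak2 in 9 and 10, and each change of these 3 stayed positive. Dhx58 was tested through its knockout libraries alone, so its kept calls and sign add no support. With no filter on low counts, 576 genes were higher and 509 lower, 18 and 2 of them pathway partners, and 5 sensors were higher. Those 5 include Zbp1, whose reads came almost only from knockout libraries, so its call adds no support. At an adjusted p under 0.01 the counts were 118 and 67 genes, 4 partners higher and 1 sensor, and under 0.1 they were 445 and 437 genes and 13 and 3 partners. limma-voom called 1 sensor. The edgeR exact test called 2 partners lower, as did the fit without KO1 and KO3. With library size only, which moved the median of all genes to 0.10, 373 genes were higher and 172 lower, against 283 and 243. With 1 library left out, 127 to 409 genes were higher and 95 to 363 lower, 1 to 5 sensors and 3 to 17 partners were higher, and 1 partner was lower. The sensor counts without WT1, WT2, WT3 or KO1 include Zbp1 as well, with the same limit. WT3 gave the lowest counts of genes and partners, and leaving out KO1 gave the highest. The log2 change of Mavs ran from -0.044 (without KO3) to 0.18 (without KO2) with 1 library left out, and was -0.15 without KO1 and KO3. The cause of these shifts was not tested. With the replicate number as a block, 295 genes were higher and 250 lower, 3 sensors and 7 partners higher and 1 partner lower, and Stat2 missed the threshold (adjusted p = 0.053). Libraries of the same number deviated with correlations of -0.073, 0.079 and 0.035, within the range of -0.12 to 0.089 for pairs of unequal number. So few libraries cannot show whether equal numbers mark a shared batch.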
